A study of Mus musculus with 12 samples.

Results

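Described here are 32 marker genes of macrophages and other myeloid cells, among 18193 genes measured in whole mouse kidney. They were chosen by name, with earlier results of these data known. All 32 were measured, by 54 probe sets whose only annotated symbol was a member. For 20 of the genes there was 1 probe set, and for 12 there were several, which were averaged on the log2 scale. The study asked how activation of AT1 receptors, the receptors of the peptide angiotensin II (ANG II), changes gene expression in the kidney. RNA of snap-frozen kidneys was hybridised to Affymetrix Mouse Genome 430 2.0 arrays, 1 for each of 12 mice. There were 4 groups of 3 mice. The wild-type (WT) mice were either at baseline or had received ANG II at 1 ug/kg/min for 2 days. Mice deficient in the AT1A receptor (AGTR1A-KO, below KO) were likewise at baseline or infused. All 12 were males of the strain F1 (C57BL6 X 129/SvEv), 2.5 months old, and the labels name an NS diet in all 4 groups. The sources used here do not say in which cells the receptor was deleted, or by which allele.

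Macrophages are phagocytes that lie in every tissue, and in the kidney they form a network around the tubules and vessels. Many of these resident cells stem from early development and depend on the growth factor receptor CSF1R, while blood monocytes enter by the chemokine receptor CCR2 and can mature into macrophages. Resident kidney macrophages are known for their C1q complement chains, the adhesion receptor F4/80 (Adgre1) and the fractalkine receptor (Cx3cr1). Monocytes carry CCR2, the integrin CD11b (Itgam) and the endotoxin receptor CD14, although tissue macrophages can carry the last ones too. The transcription factor PU.1, the product of Spi1, is needed for the whole lineage.

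Each value below is a ratio, the signal of an array over the median of that probe set in the 12 arrays, so a gene can be followed across arrays but its level cannot be set against that of another gene. Signal over background cannot be read from such ratios, and the presence of kidney markers could therefore not be checked. The probe set of the targeted gene, Agtr1a, gave ratios of 1.36 to 1.40 in WT baseline kidneys and 0.917 to 1.05 in the KO kidneys of both groups. It gave 0.957 to 1.00 in infused WT kidneys, so the infused groups overlapped, and its position relative to the deleted part is not given here. Over all genes, the SD of the log2 ratios was 0.134 to 0.153 in WT baseline arrays, 0.252 to 0.314 in infused WT, 0.194 to 0.242 in KO baseline and 0.144 to 0.175 in infused KO. A gene is said to have risen or fallen, or to be called higher or lower, where limma gave a Benjamini-Hochberg adjusted p under 0.05 over all genes. Errors after ± are moderated standard errors of a log2 change with n = 3 per group.

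Macrophage and myeloid genes were highest in the kidneys of KO mice at baseline. There 23 of the 32 genes were called higher than in WT kidneys, where 5.13% of all genes were, and 0 were called lower in limma, against 2.94% of all genes (1, Lgmn, at an unadjusted p under 0.05). The median log2 difference was 0.84 over the members and -0.04 over all genes. For 28 members each KO array lay above each WT array, as was so for 13.6% of all genes, and for 0 members below, against 21.1%. In RNA of whole tissue, a change in the number of cells of a type and a change in RNA per cell cannot be told apart.

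The ratios of the KO mice came down with the infusion. In infused against baseline KO kidneys 22 members fell, against 7% of all genes, and 0 rose in limma, against 5.82% (1, Lgmn, at an unadjusted p under 0.05). The median log2 change was -0.73 over the members and 0.05 over all genes. Arrays did not overlap for 25 members that were lower and for 1 that was higher, against 15.4% and 23% of all genes.

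In WT kidneys the same infusion moved fewer of these genes. There 7 members fell, against 15.6% of all genes, and 1 rose, against 10.9%, and the median log2 change was -0.21 beside 0.03 over all genes. These shares are not far from those of all genes. The count of falls was 1 without WT baseline replicate 1, 2 without WT baseline replicate 2 and 3 without WT ANG II replicate 3, 1 with quantile normalization again and 4 with array weights. WT arrays with the same replicate number had correlated departures from the group means (0.125 to 0.236), while KO arrays with the same number did not (-0.146 to 0.048). Whether the numbers pair arrays is not settled by this. With the number as a block over all 4 groups Cx3cr1 fell as well (log2 -0.34, adjusted p = 0.0479 in limma, against 0.0767 without the block). The 3' minus 5' log2 ratio of the actin control probe sets was 0.07 to 0.15 in infused WT arrays and -0.05 to 0.03 in the other 9. That of the Gapdh controls was -0.06 to 0.06 in infused WT arrays and -0.05 to 0.03 in the others, which overlap. The part of this in the results that use the infused WT arrays was not tested. Arrays did not overlap for 7 members that were lower and 3 that were higher, against 21.3% and 19.8% of all genes. The KO response, the difference of the responses and the KO against WT comparison at baseline share the KO baseline arrays, so their values stand side by side and do not count as separate support.

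**Figure D1:**
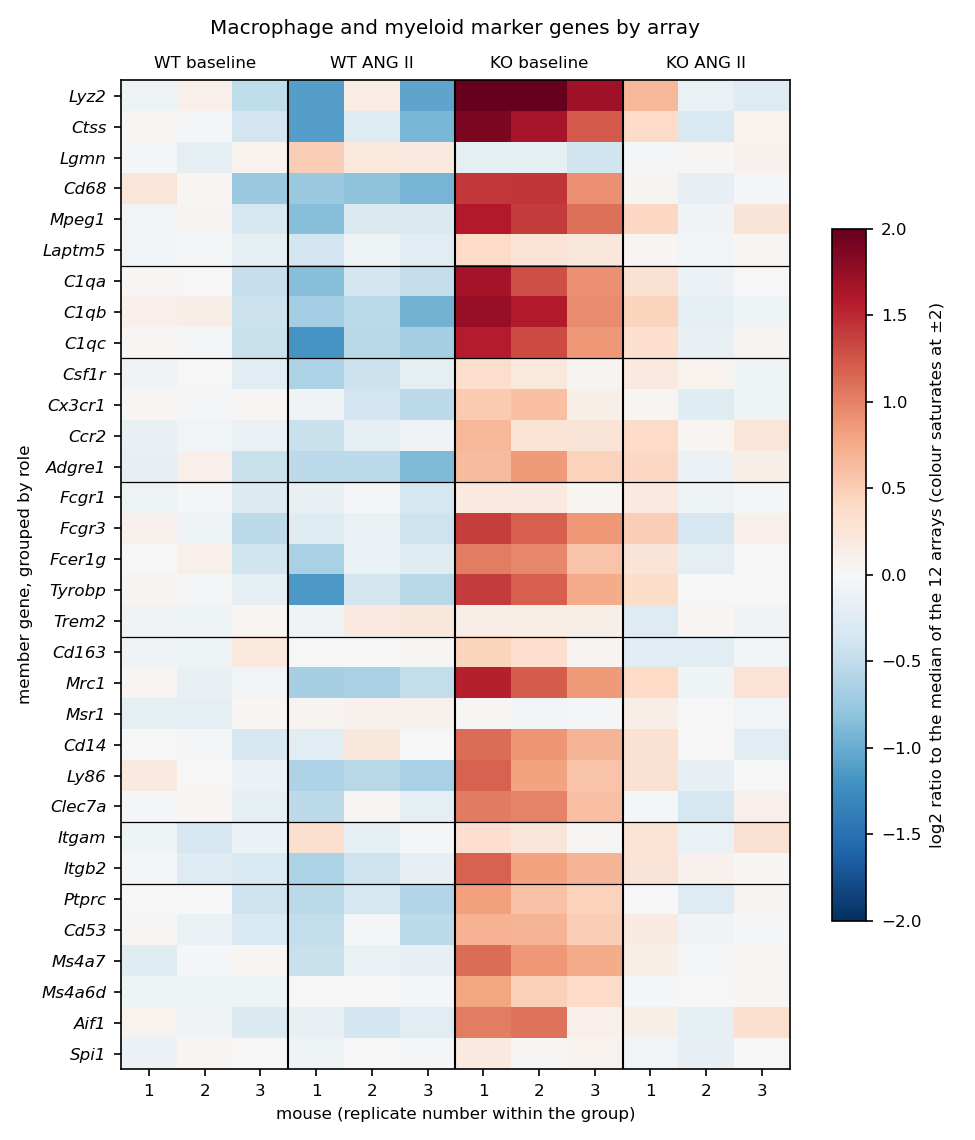
Heat map of the log2 ratio of each of the 32 genes (rows, in groups of role) in each of the 12 arrays (columns, 3 mice for each of 4 groups). Colour runs from blue for below the median of the arrays to red for above it and saturates at a log2 of 2 either way; the red block is the KO baseline group, in which Lyz2 reached ratios of 3.24 to 6.33.

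Genes of the phagocyte lysosome held the widest differences. Lyz2 encodes lysozyme, which cuts bacterial cell walls. Its ratios were 0.932, 1.07 and 0.707 in WT baseline kidneys and 6.33, 5.20 and 3.24 in KO baseline kidneys, in the order of replicates 1 to 3. They were 0.465, 1.10 and 0.483 in infused WT kidneys and 1.58, 0.913 and 0.834 in infused KO kidneys. All 3 KO baseline arrays thus stood above the other 9, and the other groups overlapped one another. Lyz2 was 5.33-fold higher in KO than in WT at baseline (log2 2.42 ± 0.34, adjusted p = 0.00156) and fell by 2.16 ± 0.34 on the log2 scale with the infusion in KO (adjusted p = 0.00261). In WT its log2 change was -0.50 ± 0.34 (adjusted p = 0.284).

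Ctss encodes cathepsin S, a protease that trims the invariant chain for antigen presentation. Its ratios were 1.02, 0.976 and 0.767 in WT baseline, 0.468, 0.836 and 0.533 in infused WT, 3.68, 3.15 and 2.34 in KO baseline and 1.30, 0.810 and 1.05 in infused KO kidneys. Again the KO baseline arrays lay above all others. The baseline difference was 1.71 ± 0.23 (adjusted p = 0.00122) and the KO response -1.54 ± 0.23 (adjusted p = 0.00198), both on the log2 scale. Cd68, a membrane glycoprotein of the lysosome, and Mpeg1, a pore-forming protein of phagocytes, followed the same order. Cd68 gave 2.68, 2.68 and 1.88 in KO baseline against 1.18, 1.02 and 0.595 in WT baseline kidneys. Mpeg1 gave 3.01, 2.62 and 2.15 against 0.966, 1.03 and 0.786. Both were called higher in KO at baseline (log2 1.41 and 1.48) and fell in KO with the infusion (log2 -1.30 and -1.16).

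Lgmn did not share this pattern. It encodes legumain, an asparaginyl protease of lysosomes that tubule cells also make. Its ratios were 0.870, 0.881 and 0.762 in KO baseline and 0.979, 0.876 and 1.05 in WT baseline kidneys, which overlap. With the infusion Lgmn rose in WT, to 1.41, 1.16 and 1.15 (log2 0.35 ± 0.09, adjusted p = 0.0168), the only member called higher there, and this call was lost without WT baseline replicate 2 (adjusted p = 0.0668). Laptm5, a lysosomal membrane protein of blood cells, was called higher at baseline as the mean of its 5 probe sets (log2 0.39 ± 0.08, adjusted p = 0.0135), but its probe sets differed, as described further on. That call was lost without WT baseline replicate 3 or KO baseline replicate 1 (adjusted p = 0.0693 and 0.0608). Lysosomal genes that most cells use were mostly not called: of 12 measured from a list of 14, 1 was called higher (Hexa, log2 0.33) and 1 lower (Neu1, -0.34) in KO at baseline, and their median log2 difference was 0.07. In WT, Gusb (beta-glucuronidase) and Lamp2 fell (log2 -0.76 and -0.31) and Ctsd rose (0.18), and in KO Hexa fell (-0.27). The widest difference in that list was that of Gusb, which was higher in KO under ANG II (1.52 ± 0.13, adjusted p = 1.09e-05) and whose responses differed by 1.07 ± 0.19 (adjusted p = 0.00289), in the direction opposite to the 6 members whose responses differed.

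The 3 chains of C1q, the recognition molecule of the classical complement pathway, moved by almost the same amounts. C1qb, C1qc and C1qa lie next to each other on chromosome 4, with 0 coding genes between neighbours. C1qa gave ratios of 3.18, 2.45 and 1.88 in KO baseline and 1.01, 0.994 and 0.725 in WT baseline kidneys. C1qb gave 3.35, 3.00 and 1.94 against 1.07, 1.09 and 0.741. C1qc gave 2.97, 2.47 and 1.83 against 1.02, 0.982 and 0.738. For each chain every KO array was above every WT array, and the log2 differences were 1.44 ± 0.19, 1.49 ± 0.22 and 1.39 ± 0.20 (adjusted p = 0.00124, 0.00192 and 0.00174). With the infusion the 3 chains fell in KO (log2 -1.23, -1.37 and -1.17). In WT, C1qb and C1qc fell by a log2 change of 0.66 ± 0.22 and 0.65 ± 0.20 (adjusted p = 0.0425 and 0.0313), while C1qa at -0.41 ± 0.19 was not called (adjusted p = 0.127). The 2 WT calls did not survive every omission of 1 array, with adjusted p up to 0.147 for C1qb and 0.152 for C1qc over all alternatives.

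The stretch of 250 bases before the transcription start is shown for 4 genes that were high in KO baseline kidneys and fell with the infusion. They were picked among members that hold GAGGAA there. These letters, the core of the purine-rich box that PU.1 is known to bind, are in capitals (TTCCTC where they read on the other strand). The sequences are those of RefSeq on the mouse build GRCm38.p6, in the direction of the gene. Ctss lies on the plus strand (chr3:95526536-95526785), C1qb and C1qc on the minus strand (chr4:136886201-136886450 and chr4:136892915-136893164) and Mrc1 on the plus strand (chr2:14229164-14229413).
Ctss: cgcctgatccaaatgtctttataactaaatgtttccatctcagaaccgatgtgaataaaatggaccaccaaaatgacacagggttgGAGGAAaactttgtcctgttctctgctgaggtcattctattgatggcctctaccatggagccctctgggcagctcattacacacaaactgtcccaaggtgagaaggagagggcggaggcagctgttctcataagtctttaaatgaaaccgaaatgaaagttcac
C1qb: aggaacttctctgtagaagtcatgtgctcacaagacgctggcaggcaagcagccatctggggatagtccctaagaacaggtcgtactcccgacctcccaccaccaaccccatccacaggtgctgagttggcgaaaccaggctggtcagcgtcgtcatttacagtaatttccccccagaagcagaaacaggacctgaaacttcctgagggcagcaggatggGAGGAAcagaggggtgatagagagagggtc
C1qc: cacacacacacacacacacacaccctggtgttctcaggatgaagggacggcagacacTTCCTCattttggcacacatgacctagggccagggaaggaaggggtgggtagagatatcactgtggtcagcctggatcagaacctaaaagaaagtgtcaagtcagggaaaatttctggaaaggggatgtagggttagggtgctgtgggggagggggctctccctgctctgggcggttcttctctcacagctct
Mrc1: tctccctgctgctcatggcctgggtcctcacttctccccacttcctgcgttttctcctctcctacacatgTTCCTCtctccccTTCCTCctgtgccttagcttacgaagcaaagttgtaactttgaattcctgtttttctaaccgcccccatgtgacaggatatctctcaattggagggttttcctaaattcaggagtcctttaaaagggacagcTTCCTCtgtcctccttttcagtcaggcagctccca
The letters stand at -164 to -159 in Ctss, at -30 to -25 in C1qb and at -193 to -188 in C1qc, counted from the start. In C1qc they are part of the longer run GAGGAAGT on the other strand, and in Mrc1 they occur 3 times, from -180, -167 and -35. Ctss also holds GAGGAAGT on the other strand, at -2 to 5, which runs past the end of the stretch shown. Promoter windows of 300 bases, 250 before and 50 after the start, were found for 23 of the 32 members. Of these 28 windows 17 hold GAGGAA on either strand (60.7%), against 28.3% of the 32851 windows of all genes, and 3 hold GAGGAAGT (10.7%, against 3.2%). The windows of Lyz2, Mpeg1, Fcer1g and Ly86, which were also high in KO baseline kidneys and fell there with the infusion, hold no GAGGAA. Those of Fcgr1, Itgam and Trem2, which were not called at baseline, do hold it. A match of letters is a description of the sequence and not a site in use.

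Among receptors for growth and chemotactic factors the differences were smaller. Adgre1, the gene of F4/80, gave ratios of 1.54, 1.79 and 1.38 in KO baseline and 0.894, 1.07 and 0.731 in WT baseline kidneys, without overlap. Its log2 difference was 0.81 ± 0.16 (adjusted p = 0.0103), and the call was lost without WT baseline replicate 3 (adjusted p = 0.0513) or KO baseline replicate 2 (adjusted p = 0.0529). Ccr2, the receptor of monocyte chemokines, gave 1.59, 1.20 and 1.20 against 0.898, 0.962 and 0.907 (log2 0.52 ± 0.13, adjusted p = 0.0255), a call lost without any of the 3 WT baseline arrays or KO baseline replicate 1 (adjusted p up to 0.0932). Csf1r, the receptor of the macrophage growth factor, differed little. Its ratios were 1.27, 1.16 and 1.04 in KO and 0.949, 1.01 and 0.861 in WT baseline kidneys. These arrays did not overlap, but the log2 difference of 0.30 ± 0.12 was not called (adjusted p = 0.132). Cx3cr1 was not called at baseline either (log2 0.40 ± 0.13, adjusted p = 0.0852), although without KO baseline replicate 3 it was (0.55, adjusted p = 0.0197). It fell in KO with the infusion (log2 -0.51 ± 0.13, adjusted p = 0.0272), a call that was lost without KO baseline replicate 1 or 2 or KO ANG II replicate 2 or 3 (adjusted p up to 0.107).

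Fc receptors bind antibody, and they and TREM2 signal through small adaptor chains that carry an activation motif. The adaptor Tyrobp (DAP12) gave 2.62, 2.28 and 1.67 in KO baseline against 1.04, 0.988 and 0.872 in WT baseline kidneys, and 0.450, 0.779 and 0.680 in infused WT kidneys. It was called higher at baseline (log2 1.16 ± 0.20, adjusted p = 0.00431) and fell with the infusion in KO (-0.99) and in WT (-0.64). Fcer1g, the common Fc receptor gamma chain, gave 2.02, 1.95 and 1.49 in KO baseline against 0.997, 1.08 and 0.759 in WT baseline kidneys (log2 0.95 ± 0.17, adjusted p = 0.00595). The low-affinity IgG receptor Fcgr3 gave 2.60, 2.28 and 1.82 against 1.06, 0.943 and 0.693 (log2 1.32 ± 0.20, adjusted p = 0.0023). For these 3 genes each KO baseline array lay above each WT baseline array, as was so for 13.6% of all genes. The high-affinity receptor Fcgr1 and the lipid receptor Trem2, which pairs with DAP12, were not called at baseline (log2 0.27 ± 0.10 and 0.16 ± 0.09). The KO baseline arrays of both also lay above the WT baseline arrays, by less. Their KO baseline ratios were 1.03 to 1.14 and 1.08 to 1.09, against 0.826 to 0.988 and 0.942 to 1.03 in WT baseline kidneys.

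Of the receptors that recognise microbes and debris, Mrc1, the mannose receptor, differed most. It gave 2.94, 2.32 and 1.80 in KO baseline and 1.03, 0.901 and 0.968 in WT baseline kidneys, 0.629, 0.641 and 0.710 in infused WT and 1.32, 0.946 and 1.22 in infused KO kidneys. The infused WT arrays were the lowest, below every other array. Mrc1 was higher at baseline by 1.26 ± 0.16 (adjusted p = 0.000802) and under ANG II by 0.80 ± 0.16 (adjusted p = 0.00305), both in log2. Cd14, the endotoxin co-receptor, gave 2.16, 1.85 and 1.60 in KO baseline and 1.01, 0.985 and 0.793 in WT baseline kidneys (log2 1.01 ± 0.15, adjusted p = 0.00243). Ly86 (MD-1), a partner of a Toll-like receptor homologue, and Clec7a (dectin-1), the beta-glucan receptor, were also called higher at baseline (log2 0.83 ± 0.15 and 0.94 ± 0.16). Clec7a gave 2.06, 1.99 and 1.51 there against 0.973, 1.03 and 0.874 in WT. The haemoglobin scavenger receptor Cd163 (log2 0.26 ± 0.11, adjusted p = 0.142) and the scavenger receptor Msr1 (0.09 ± 0.08, adjusted p = 0.5) were not called at baseline. Cd163 fell in KO with the infusion, from ratios of 1.04 to 1.36 down to 0.861 to 0.967 (log2 -0.44 ± 0.11, adjusted p = 0.019), but not without KO baseline replicate 1 or 2 or KO ANG II replicate 2 (adjusted p = 0.0757, 0.072 and 0.0614).

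The integrin chain Itgb2 (CD18), shared by leukocyte integrins, gave 2.27, 1.75 and 1.60 in KO baseline and 0.989, 0.836 and 0.811 in WT baseline kidneys (log2 1.08 ± 0.14, adjusted p = 0.00108). Its partner chain Itgam (CD11b) gave 1.27, 1.18 and 1.01 against 0.940, 0.788 and 0.923, and its difference of 0.38 ± 0.14 was not called (adjusted p = 0.125). Both chains were thus above WT in all KO baseline arrays, by unequal amounts. Among pan-leukocyte and macrophage surface genes, Ptprc (CD45), the tetraspanin Cd53 and the membrane proteins Ms4a7 and Ms4a6d were called higher at baseline, with log2 differences of 0.75, 0.76, 0.99 and 0.64, and fell in KO with the infusion. Ms4a7 gave 2.18, 1.82 and 1.67 in KO baseline and 0.841, 0.978 and 1.03 in WT baseline kidneys. Aif1 (IBA1), an actin-bundling protein used to stain macrophages, gave 2.04 and 2.12 in KO baseline replicates 1 and 2 but 1.08 in replicate 3. Its call at baseline (log2 0.84 ± 0.21, adjusted p = 0.0322) was lost without WT baseline replicate 2 or 3 or KO baseline replicate 1 or 2 (adjusted p up to 0.141), and its KO response of -0.66 ± 0.21 was called only without KO baseline replicate 3 among the single omissions (-0.97, adjusted p = 0.00199). Spi1 itself, the gene of PU.1, had ratios of 0.897 to 1.14 in the 12 arrays and was called in no comparison, its baseline difference being 0.13 ± 0.07 (adjusted p = 0.295).

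**Figure D2:**
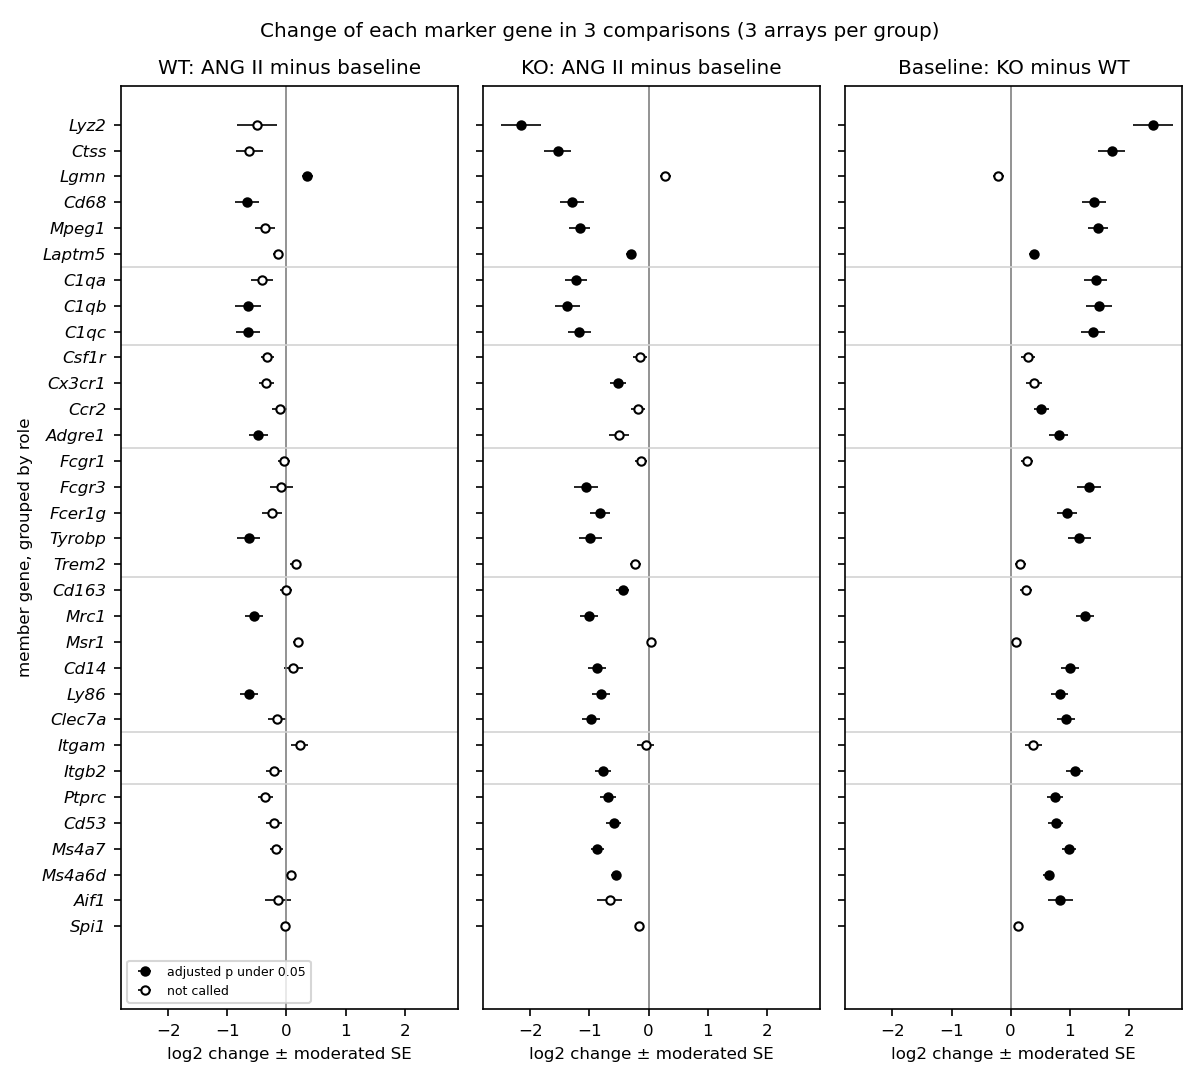
Log2 change of each of the 32 genes (rows, by role) with its moderated standard error, for ANG II minus baseline in WT (left), ANG II minus baseline in KO (middle) and KO minus WT at baseline (right). Filled circles have an adjusted p under 0.05: 8 in the left panel, 22 in the middle and 23 in the right, where Lyz2 at 2.42 is the highest.

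Arrays within the KO baseline group kept an order. Replicate 1 was the highest of the 3 for 26 of the 32 members and replicate 3 the lowest for 29, where over all genes these arrays were so for 31.7% and 36.1%. The mean log2 ratio of the members was 0.95, 0.80 and 0.51 in these 3 arrays. In the WT baseline arrays it was -0.02, -0.04 and -0.23, and in infused KO arrays 0.20, -0.11 and 0.04. The members therefore varied together from mouse to mouse within groups too. Leaving out any 1 array left 19 to 25 members called higher in KO at baseline and 19 to 23 called lower in the KO response.

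The responses of the genotypes differed by test for 6 members, all toward a larger fall in KO, against 4.12% of all genes, and for 0 in the other direction in limma, against 8.86% (0 also at an unadjusted p under 0.05). The median log2 difference was -0.44 over the members and 0.01 over all genes. Lyz2 (-1.66 ± 0.48, adjusted p = 0.0398), Cd14 (-0.98 ± 0.22, adjusted p = 0.011), Fcgr3 (-0.98 ± 0.28, adjusted p = 0.0394), Clec7a (-0.81 ± 0.22, adjusted p = 0.0295), Ms4a7 (-0.69 ± 0.16, adjusted p = 0.0137) and Ms4a6d (-0.63 ± 0.13, adjusted p = 0.00647) were these. Cd14 moved from 1.01, 0.985 and 0.793 to 0.865, 1.18 and 0.991 in WT, which overlap, and from 2.16, 1.85 and 1.60 to 1.23, 0.991 and 0.862 in KO, which do not. Ms4a6d moved from 0.943, 0.932 and 0.940 to 0.994, 0.998 and 0.974 in WT and from 1.73, 1.40 and 1.30 to 0.970, 1.00 and 1.03 in KO. The WT arrays of Ms4a6d hardly spread, and its small WT change of 0.08 ± 0.09 was not called (adjusted p = 0.541). The count of 6 was 10 without WT ANG II replicate 1, 12 without KO baseline replicate 3, and 3 without WT ANG II replicate 2, KO baseline replicate 1 or KO baseline replicate 2. The calls of Lyz2, Fcgr3 and Clec7a were each lost without at least 7 of the single arrays, whereas those of Cd14, Ms4a7 and Ms4a6d were kept in each of the 12 omissions. With quantile normalization again the count was 2, Ms4a7 and Ms4a6d, and the calls of Lyz2, Cd14, Fcgr3 and Clec7a were lost (adjusted p = 0.055, 0.0584, 0.176 and 0.0844). With array weights the count was 11. For Adgre1 (-0.02 ± 0.23), Ly86 (-0.17 ± 0.21) and Ccr2 (-0.06 ± 0.18) the responses had similar values, and these wide errors do not show them to be alike.

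Of the 8 calls in WT, only that of Ly86 was kept under every alternative and every omission of an array. Its ratios were 1.15, 0.993 and 0.921 at baseline and 0.651, 0.679 and 0.635 after infusion, without overlap (log2 -0.63 ± 0.15, adjusted p = 0.0086). Mrc1 (-0.55), Tyrobp (-0.64), Cd68 (-0.67), Adgre1 (-0.48), C1qb and C1qc were the other falls. Without WT baseline replicate 1 the adjusted p of these 6 ran from 0.0815 for Mrc1 to 0.146 for C1qb.

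After infusion the KO kidneys were still above the WT kidneys for part of the genes. Under ANG II 15 members were called higher in KO, against 15.2% of all genes, and 1 lower, Lgmn, against 10.4%. The median log2 difference was 0.37 over the members and -0.02 over all genes, and arrays did not overlap for 15 members that were higher and 2 that were lower, against 21% and 17.9%. The largest difference was that of C1qc (0.88 ± 0.20, adjusted p = 0.00811), followed by Tyrobp (0.81 ± 0.20, adjusted p = 0.0107), Ctss (0.81 ± 0.23, adjusted p = 0.0225), Mrc1 and Adgre1 (0.79 ± 0.16, adjusted p = 0.00441). The count of 15 was 9 without WT ANG II replicate 1 or replicate 3 and 6 without KO ANG II replicate 1, 9 with quantile normalization again and 10 with array weights, and the call of Lgmn was lost in 9 of the 12 omissions. Ms4a6d, Cd14 and Clec7a, by contrast, had differences of 0.02 ± 0.09, 0.02 ± 0.15 and 0.13 ± 0.16 after infusion. Set beside untreated WT kidneys, infused KO kidneys overlapped in 29 of the 32 members (90.6%, against 79.8% of all genes). Ccr2, Itgb2 and Ms4a6d were the ones above, as were 1861 of all 18193 genes, and 0 members were below, against 1818 genes. The median log2 difference was 0.15 over the members and 0.006 over all genes. An overlap of 3 arrays with 3 does not show the levels to be equal.

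For the comparison of resident macrophages with monocytes, 11 members were taken as resident markers (C1qa, C1qb, C1qc, Adgre1, Csf1r, Cx3cr1, Cd163, Mrc1, Trem2, Ms4a7 and Msr1) and 4 as monocyte markers (Ccr2, Itgam, Cd14 and Clec7a). The remaining 17 are shared by myeloid cells and were put in neither. At baseline the median log2 difference of KO from WT was 0.81 over the resident and 0.73 over the monocyte markers, and 6 of 11 and 3 of 4 were called. With the infusion in KO the medians were -0.51 and -0.52, with 7 of 11 and 2 of 4 members falling. The monocyte median is over 4 genes that span -0.97 to -0.05, and with quantile normalization again the medians were -0.45 and -0.32. In WT the medians were -0.34 and 0.00. There 4 resident markers fell (C1qb, C1qc, Adgre1 and Mrc1) and 0 of the 4 monocyte markers in limma (0 also at an unadjusted p under 0.05), beside 15.6% of all genes. All 4 of these falls were lost without WT baseline replicate 1 (adjusted p = 0.146, 0.118, 0.118 and 0.0815) and with quantile normalization again (adjusted p = 0.147, 0.152, 0.278 and 0.102). With calls this unstable and only 4 monocyte markers, the counts in WT show neither a difference between the classes nor its absence. Under ANG II the medians of KO minus WT were 0.48 and 0.12, with 6 and 1 called.

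The mean of the resident markers minus that of the monocyte markers was taken in each array. On the log2 scale it was 0.01 to 0.06 in WT baseline, 0.08 to 0.16 in KO baseline, -0.10 to 0.02 in infused KO and -0.30 to -0.25 in infused WT arrays. The infused WT arrays, which also had the higher actin 3' minus 5' ratio, were thus the lowest, and no other group overlapped them. With quantile normalization again the infused WT arrays also stood apart, at -0.20 to -0.17 beside -0.12 to 0.03 in infused KO, the next lowest group. With 1 probe set per gene these ranges were -0.24 to -0.18 and -0.08 to 0.06. The separation from the KO groups rests in part on the C1q chains. Without them the infused WT arrays lay at -0.20 to -0.08, the KO baseline arrays at -0.20 to -0.08 and the infused KO arrays at -0.13 to 0.04, which overlap. The WT baseline arrays, at -0.03 to 0.15, still lay above infused WT there. Without Cd14 the infused groups overlapped too, at -0.28 to -0.18 in WT and -0.21 to 0.05 in KO. WT baseline, at -0.003 to 0.09, again lay above infused WT. With the further markers of the next paragraph added, the WT arrays overlapped as well (-0.05 to 0.03 at baseline and -0.22 to -0.02 after infusion). Since the classes were chosen with earlier results known, no test is given for them.

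**Figure D3:**
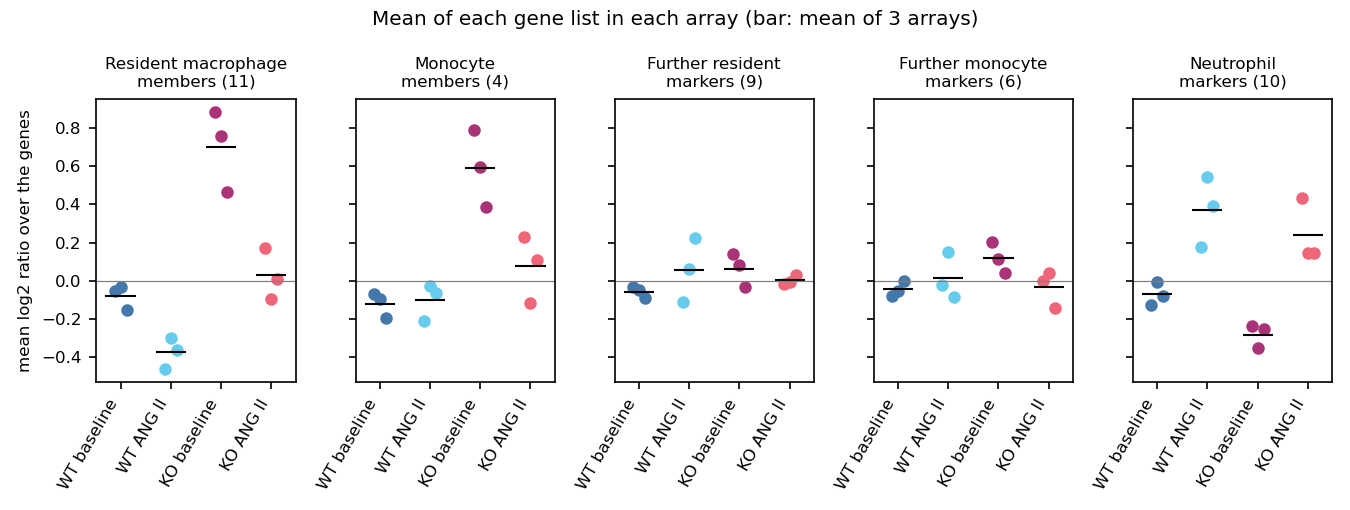
Mean log2 ratio of a gene list (y axis) in each of 3 arrays for each of the 4 groups (x axis), with a bar at the mean of the 3 arrays, for the 11 resident and 4 monocyte members, 9 further resident markers, 6 further monocyte markers and 10 neutrophil markers. Both member classes stand highest in KO baseline arrays, the further lists do not separate the groups as far, and neutrophil markers are higher after infusion in both genotypes.

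Most other markers of the same cells, outside the 32 genes, were not called at baseline. Of 9 further resident markers 1 was called higher in KO at baseline, the complement receptor C3ar1 (log2 0.65 ± 0.13, adjusted p = 0.0106), and the median was -0.01. Vsig4 and Timd4, receptors typical of some resident macrophages, had differences of -0.26 and -0.01. In WT, Cd209f and Folr2 rose with the infusion (log2 0.49 and 0.41) and they also rose in KO (0.27 and 0.26), whereas Fcrls fell in KO (-0.43). Of 8 further monocyte markers 6 were measured and 1, Plac8, was higher in KO at baseline. Plac8 gave 1.44, 1.58 and 1.37 in KO baseline and 0.991, 0.963 and 1.01 in WT baseline kidneys (log2 0.56 ± 0.08, adjusted p = 0.00212). It fell in both genotypes with the infusion (log2 -0.65 in WT and -0.52 in KO), and Ms4a4c fell in KO (-0.26). Chil3, a chitinase-like protein of monocytes and other myeloid cells, rose in WT (log2 0.63).

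Of the factors that feed or attract these cells 8 of 9 listed genes were measured. Ccl2, the chief ligand of CCR2, gave 1.57, 1.27 and 1.24 in KO baseline and 0.788, 0.887 and 0.899 in WT baseline kidneys (log2 0.66 ± 0.14, adjusted p = 0.0122). It fell in KO with the infusion (-0.54), and its responses differed between genotypes (-0.75 ± 0.19, adjusted p = 0.0226). Cx3cl1, the ligand of CX3CR1, was also higher in KO at baseline (log2 0.43). The CSF1R ligands Csf1 and Il34 were not called there (0.30 and 0.25), and Il34 was higher in KO under ANG II (0.58). In WT 0 of the 8 changed in limma (0 also at an unadjusted p under 0.05), and the widest values were those of Ccl12 and Ccl2 (0.22 each). Among 11 measured lineage factors and signalling genes, the transcription factors Cebpb (log2 1.12 ± 0.15) and Irf8 (0.62 ± 0.08) were higher in KO at baseline and fell there with the infusion (-0.96 and -0.49). Cebpb rose in WT (0.50), and its responses differed by -1.46 ± 0.22 (adjusted p = 0.00112). The signalling genes Inpp5d and Plcg2 also rose in WT (0.32 and 0.22), and the phosphatase gene Ptpn6 fell (-0.29). The other 9 of these genes were not called at baseline. Of 10 genes of activation states, Socs3, Clec10a and Cd86 were higher in KO at baseline (log2 1.12, 0.72 and 0.39), and Clec10a and Cd86 fell with the infusion (-0.59 and -0.34). In WT, Il10 rose (0.31). The inflammatory genes Nos2, Il1b, Tnf and Il6 had baseline differences of -0.30 to -0.06 and were not called.

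Markers of other cells were read beside these. Of 10 neutrophil genes 0 were called at baseline in limma (1 was lower in KO at an unadjusted p under 0.05), where all 10 had negative differences (median log2 -0.20), the widest for S100a9 and Cxcr2 (-0.59 and -0.28). With the infusion 5 of them rose in WT, among them Cxcr2, Csf3r, Elane and Ngp (log2 0.42 to 0.48), and 3 in KO, S100a9, S100a8 (1.58) and Mmp8 (0.38). Called or not, the WT changes of the 10 genes ran from 0.15 to 0.83. The responses differed for 0 of the 10 in limma (1 was lower at an unadjusted p under 0.05). S100a9, a calcium-binding protein that neutrophils and monocytes both carry, had the widest KO response of the list (log2 1.84 ± 0.42, adjusted p = 0.0156), with ratios of 4.60, 1.11 and 1.42 after infusion and 0.503 to 0.579 before. The mean log2 ratio of the neutrophil list was -0.35 to -0.24 in KO baseline and -0.13 to -0.0039 in WT baseline arrays, 0.15 to 0.43 in infused KO and 0.18 to 0.55 in infused WT arrays. Of 7 dendritic cell genes 1 was higher in KO at baseline, Itgax (CD11c; log2 0.87 ± 0.14), which some kidney macrophages also carry, and it fell with the infusion in KO (-0.55), while Siglech rose in WT (0.30). Jchain, which joins antibody subunits in plasma cells, was higher in KO at baseline by 3.53 ± 0.32 and under ANG II by 2.43 ± 0.32, while the other 6 of the 7 B cell genes were not called in these comparisons. Jchain fell in KO with the infusion (-1.34), and Cd79a rose in WT (0.22). Endothelial genes moved partly with the members: 3 of 10 were higher in KO at baseline (Vwf 1.25, Tie1 0.38 and Flt1 0.26, in log2). In KO 5 fell, among them Vwf (-1.23), Plvap (-0.61) and Tek (-0.48), and Kdr rose (0.35). In WT 4 fell, among them Emcn (-0.60), Ehd3 (-0.55) and Tek (-0.40), and Flt1 rose (0.35). The mean log2 ratio of the endothelial list was 0.30 to 0.34 in KO baseline and -0.13 to 0.07 in WT baseline arrays. Of 9 T and NK cell genes 1 was called at baseline, Cd3g (0.41), and Cd4 and Cd8a rose in WT (0.31 and 0.30). In KO 0 of the 9 changed in limma (1 was higher and 1 lower at an unadjusted p under 0.05), with the widest values for Cd3d and Cd3g (-0.26 and -0.23).

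Of 3 erythroid genes measured, Alas2, which makes the first haem precursor in red cells, was higher in KO at baseline (log2 0.69 ± 0.16, adjusted p = 0.0202) and rose in WT with the infusion (1.38 ± 0.16). Its responses differed by -1.44 ± 0.23 (adjusted p = 0.00151), the direction of the members. In KO 0 of the 3 changed in limma (1 was lower at an unadjusted p under 0.05), Slc4a1 and Hba-a1 having the widest values (-0.30 and 0.20). Of 10 proximal tubule genes 2 were lower in KO at baseline, Slc5a12 (-0.68) and Slc5a2 (-0.44), and the responses differed upward for 4 and downward for 1. In WT 4 of them fell, among them Slc5a2 (-0.69), Slc22a6 (-0.65) and Miox (-0.43), and 2 rose, among them Cubn (0.60). In KO Slc5a2 rose (0.43) and Aqp1 fell (-0.31). The mean log2 ratio of the tubule list was -0.13 to -0.08 in KO baseline and -0.03 to 0.16 in WT baseline arrays. Of 6 genes of fat and adrenal tissue near the capsule, Cyp21a1 was lower in KO at baseline (-0.33) and rose there with the infusion (0.25), as did Cyp11b1 (0.36). In WT 0 of the 6 changed in limma (1 was higher at an unadjusted p under 0.05), the widest values being those of Cyp11b1 and Retn (0.27 and 0.17). The part of these cells in the results on the members was not tested.

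Where a member had several probe sets, these often differed in size. At baseline the 3 probe sets of C1qb gave log2 differences of 1.30 to 1.66 and all were called, and those of Csf1r gave 0.27 to 0.34 and none was called. For Ms4a7 the values were 0.15 and 1.83, for Ptprc 0.24 and 1.27, for Cd53 0.23 and 1.30, and for Ms4a6d -0.17 to 1.05. The mean of a gene in these cases is smaller than the value of its most responsive probe set. Ccr2 had 4 probe sets between -0.08 and 0.95, of which 2 were called. Laptm5 ran from -0.30 to 1.50 over 5 probe sets, of which 1 was called. The same probe set fell in the KO response (-1.25 ± 0.25, adjusted p = 0.00715), and the others were not called there. As the mean of its probe sets Laptm5 fell in KO by limma (-0.29 ± 0.08, adjusted p = 0.037). That call was lost without any 1 of the 6 KO arrays (adjusted p up to 0.124) and with quantile normalization again. In WT the probe set called at baseline fell (-1.01 ± 0.25, adjusted p = 0.0117) while another rose (0.34 ± 0.10, adjusted p = 0.0256). In KO against WT under ANG II the former was higher (1.26 ± 0.25, adjusted p = 0.00386) and the latter lower (-0.35 ± 0.10, adjusted p = 0.0285). No direction is thus given for Laptm5 in WT or under ANG II. The 2 probe sets of Trem2 differed in the KO response, with 0.07 ± 0.11 in the one and -0.51 ± 0.11 (adjusted p = 0.0129) in the other.

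**Figure D4:**
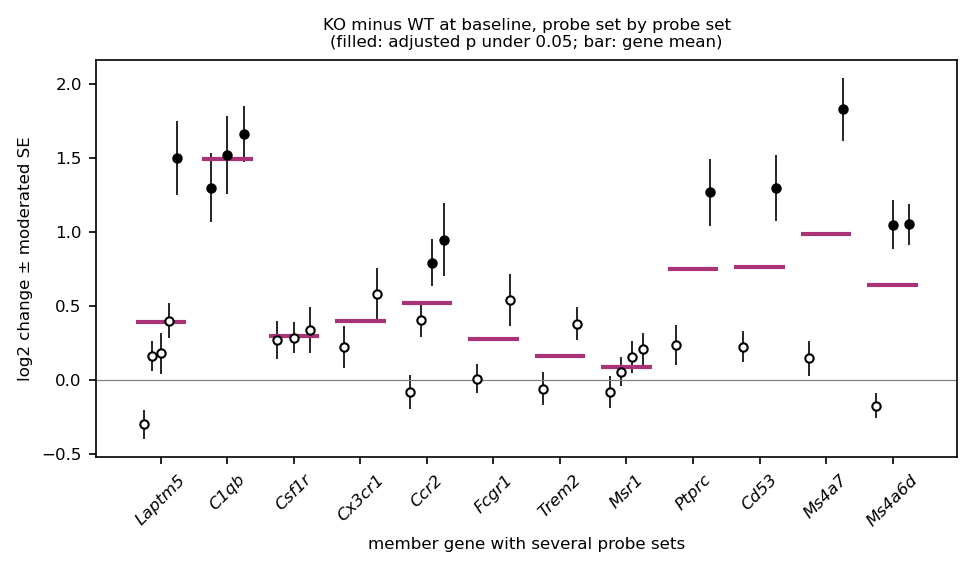
Log2 difference of KO minus WT at baseline with its moderated standard error (y axis) for each probe set of the 12 members that have several (x axis). Filled points have an adjusted p under 0.05 over all probe sets, the horizontal bar is the value of the gene as used in the text, and Laptm5 spans -0.30 to 1.50.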

How the data were processed

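The deposited values of the 12 arrays were RMA output per the submitters' processing notes, which name RMA without a version. Each deposited value was a linear ratio to the probe set's median over the 12 arrays. The labels do not state that division, which the values show: the median lay within 0.002 of 1 for 45099 of 45101 probe sets. After 64 controls were left out, 34945 of 45037 probe sets carried 1 gene symbol of the array's annotation, 932 several and 9160 none. Log2 ratios were averaged per gene over its probe sets with 1 symbol, giving 18193 genes, with no filter on low values.

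With limma 3.58.1 (R 4.3.3), 1 model with the 4 group means described the 12 arrays jointly (8 residual and 4.73 prior degrees of freedom, no variance trend). The 5 comparisons were tested two-sided with Benjamini-Hochberg adjustment over all genes and called at an adjusted p under 0.05. A run on simulated data, with independent noise for each gene, checked only that planted changes were returned on average. It does not test the calls for genes that vary together. All 32 members are accounted for. Values per array are given for the 8 members with the largest log2 changes in either response or at baseline, those whose responses differ by a call, and the 4 monocyte markers. For several of these only the arrays of the baseline groups are printed. From each further list up to 4 called genes are named for the responses and the baseline comparison, or the 2 with the largest changes where none was called. The rule set for these lists also covered the difference of responses and the comparison under ANG II, for which only some of their genes are named. The members and lists were chosen with earlier results of these data known, so their counts are descriptions.

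Whether replicate numbers pair arrays was read from correlations of the deviations from group means. Between the WT groups the 3 pairs with the same number gave 0.228, 0.236 and 0.125, all over 0.1, and pairs with different numbers at most 0.059. Deviations within a group cancel out, so positive values for the same number push the others down, and these are not separate support. Between the KO groups the pairs with the same number gave -0.028, -0.146 and 0.048. The labels state no pairing and the correlations do not settle it, so the main fit took the numbers as names and used no block. Over all groups the 18 pairs with the same number ran from -0.146 to 0.287 (7 over 0.1), and of 36 pairs with different numbers 10 were over 0.1. The block was fitted over the 4 groups. The alternatives were other uses of probe sets, quantile normalization again, centred arrays, a variance trend, fits to 2 groups, a replicate block, array weights, a filter on low spread and the omission of each array. Promoter sequences were those of RefSeq on GRCm38.p6. The number of arrays limits the precision.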

Additional observations from a re-analysis of the deposited data

Results flagged for a closer look

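For 6 members the KO response was lower than the WT response by limma's test of the difference between the genotypes. On the log2 scale this difference was -1.66 for Lyz2, -0.98 for Cd14, -0.98 for Fcgr3, -0.81 for Clec7a, -0.69 for Ms4a7 and -0.63 for Ms4a6d. The calls of Ms4a7 and Ms4a6d were kept in all 21 alternatives, and that of Cd14 in 20. Those of Lyz2, Fcgr3 and Clec7a were kept in 13, 12 and 13. The probe sets of Ms4a7 gave differences of -1.25 and -0.14 (adjusted p = 0.0189 and 0.674 in limma). Those of Ms4a6d gave -0.98, -0.97 and 0.07 (adjusted p = 0.00742, 0.021 and 0.784). The alternatives that take 1 probe set used a responsive one for both genes, so they did not test the other. The comparison uses the KO baseline arrays, in which all 6 genes were high.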

How the results depend on the processing

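Over 3478 values of members under the alternatives, 3190 kept their direction and side of the threshold, 161 lost a call, 75 gained one, 9 reversed and 43 changed sign without a call. All calls were kept under every alternative for 1 of 8 members in the WT response, 18 of 22 in KO, 2 of 6 in the difference, 18 of 23 at baseline and 5 of 16 under ANG II. Quantile normalization again gave other counts and medians: WT higher 0 and lower 1, difference lower 2, ANG II higher 9 and lower 0, monocyte median -0.32 in the KO response and 0.55 at baseline, and resident median 0.64 at baseline. Over all genes it gave 668 higher and 1923 lower in WT, against 1982 and 2839, and 1660 and 645 under ANG II, against 2763 and 1888. With each probe set tested, 1 probe set per gene, or no _s_at and _x_at probe sets, 2 members rose in WT. In KO 1 rose with each probe set, 1 probe set per gene, only 2 groups, array weights or low spread left out. Array weights gave 4 falls in WT and 11 in the difference. The call of Lgmn under ANG II (1 lower) gave 0 with centring, only 2 groups, the replicate block, array weights or low spread left out.

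The replicate block as a pairing of arrays kept 155 of 160 values. It lost the call of Lgmn under ANG II (adjusted p = 0.0555) and gained Cx3cr1 in WT (0.0479), Adgre1 in KO (0.0384) and C1qb and Trem2 in the difference (0.0393 and 0.0479, adjusted p in limma). Laptm5 reversed with 1 probe set per gene and without _s_at and _x_at probe sets: 0.34 in WT, 0.30 in KO, -0.30 at baseline and -0.35 under ANG II. Ptprc reversed under ANG II with 1 probe set per gene (-0.24). Leaving out 1 array gave 0 to 2 higher and 1 to 9 lower in WT, 0 to 1 higher in KO, 3 to 12 lower in the difference, 6 to 17 higher and 0 to 1 lower under ANG II, a resident median of -0.66 to -0.42 in KO and of 0.67 to 0.95 at baseline. Causes were not tested. Leaving out the C1q chains or Cd14, or adding further markers, was chosen after seeing the data. Signal over background, which limits what dim probe sets can show, cannot be read from ratios.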

Other observations

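The order of arrays within groups, which no comparison uses, was shared by many members. In infused KO kidneys replicate 1 was the highest for 23 of 32 members and replicate 2 the lowest for 23, where over all genes these shares were 30.2% and 33.5%. In infused WT kidneys replicate 1 was the lowest for 19 and replicate 2 the highest for 18, against 32.4% and 26.3% of all genes. In WT baseline kidneys replicate 3 was the lowest for 21, against 32.1%.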
